A study of Homo sapiens with 6 samples.

Results

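LTBP4 and 9 other genes of transforming growth factor beta (TGF-beta) signalling were followed in Kasumi-1 cells incubated with I13. The 10 genes are the latent binding proteins LTBP1, LTBP3 and LTBP4, the ligand TGFB1, the receptors TGFBR1 and TGFBR2, and the signal transducers SMAD2, SMAD3, SMAD4 and SMAD7. They are 10 of the 32364 genes of the deposited table and were matched by Ensembl identifier. LTBP4 was chosen by its FPKM values in this same table, which were higher after I13, so its difference is given as a description without a test. The other 9 genes were chosen for their place in the pathway, and the question was whether the ligand, the receptors or the SMADs differed as well.

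Kasumi-1 cells come from a human acute myeloid leukemia in which RUNX1 is fused to RUNX1T1. I13 is a histone deacetylase inhibitor. Histone deacetylases remove acetyl groups from histones and other proteins. Of the 6 mRNA sequencing libraries, 3 were made from control cells and 3 after exposure to 0.5 µM I13, and both incubations lasted 48 h. By the study's methods the control was the same solution without compound, and the inhibitor stock was dissolved in dimethyl sulfoxide. All cells were of 1 line and 1 dose and time were measured. The labels number the libraries of each group 1 to 3 but do not say whether they came from separate cultures, while the study describes its experiments as independent repeats. By the labels alone, the p-values measure only the spread between these libraries, which may be technical.

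TGF-beta is secreted in a latent complex, in which its own propeptide holds the ligand inactive. The propeptide is usually bound by a latent TGF-beta binding protein (LTBP), which anchors the complex to fibrillin and other matrix fibres, and integrins or proteases release the ligand. The free ligand binds TGFBR2, which recruits and phosphorylates TGFBR1, and TGFBR1 phosphorylates SMAD2 and SMAD3, which enter the nucleus with SMAD4. SMAD7 is induced by the pathway and blocks the receptor. In blood progenitors TGF-beta is best known for holding cells out of the cell cycle.

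Values are FPKM, the fragments on a gene per kilobase of its exons and scaled to the mapped fragments of the library. The mapped fragments implied by the values ranged from 16566742 to 17221345 per control library and from 15281052 to 16682550 per I13 library. RUNX1T1, the fusion partner that marks this line, was at 12.5 to 14.4 FPKM in the 6 libraries, and all 5 markers of the line were detected. Of 5 fibroblast or stroma markers, 4 were at 0 in every library, and their summed level was at most 0.0163 FPKM in the control libraries and 0 in the I13 libraries. The other lists summed to 1.26 to 2.03 FPKM in control and 1.41 to 1.92 in I13 for platelets or megakaryocytes, to at most 0.133 for endothelium, to 0.333 to 0.438 and 0.179 to 0.207 for T cells, and to 1.46 to 1.83 and 1.75 to 2.60 for B cells. Of the 4 platelet or megakaryocyte markers, PPBP was at 0 in all libraries, while GP1BA was at 0.929 to 1.81 FPKM and ITGA2B at 0.165 to 0.262 FPKM. GP9 was at 0 to 0.131 FPKM in control and at 0.0736 to 0.353 FPKM in I13. The planned markers PF4, DCN and MS4A1 were not found by name in the deposited table. The part of these lists in the results was not tested. In a principal component analysis of the 4133 genes whose mean FPKM reached 10, component 1 held 43.3% of the variance and set control 3 and I13 2 apart from the other 4 libraries. Each main difference below is therefore also given without these 2 libraries and between these 2 libraries alone.

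LTBP4 (ENSG00000090006) lies at chr19:40592883-40629818 on the plus strand of GRCh38, and TGFB1 (ENSG00000105329) lies on the same chromosome at chr19:41301587-41353911 on the minus strand, 672 kb beyond the end of LTBP4. RefSeq (GRCh38.p14) gives 2 starts for LTBP4 in the reference used, and the 250 bases before each are shown because they differ in base composition, with those before the TGFB1 start for comparison. Capitals mark GGGCGG or its reverse complement CCGCCC, the core letters of a GC box. Matches of GGGCGG were counted on both strands and with overlaps.

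LTBP4, chr19:40592916-40593165, plus strand: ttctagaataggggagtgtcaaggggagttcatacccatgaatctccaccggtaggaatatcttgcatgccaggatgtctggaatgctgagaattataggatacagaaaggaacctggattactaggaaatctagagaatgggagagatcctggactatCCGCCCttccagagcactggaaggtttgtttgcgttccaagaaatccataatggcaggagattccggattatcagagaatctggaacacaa
LTBP4, chr19:40601119-40601368, plus strand: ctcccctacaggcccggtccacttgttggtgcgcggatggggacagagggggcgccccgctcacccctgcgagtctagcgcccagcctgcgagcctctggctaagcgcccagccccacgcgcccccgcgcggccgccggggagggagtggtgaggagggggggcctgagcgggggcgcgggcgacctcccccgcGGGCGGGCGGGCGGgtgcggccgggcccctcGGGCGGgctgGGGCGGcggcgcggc
TGFB1, chr19:41353923-41354172, minus strand: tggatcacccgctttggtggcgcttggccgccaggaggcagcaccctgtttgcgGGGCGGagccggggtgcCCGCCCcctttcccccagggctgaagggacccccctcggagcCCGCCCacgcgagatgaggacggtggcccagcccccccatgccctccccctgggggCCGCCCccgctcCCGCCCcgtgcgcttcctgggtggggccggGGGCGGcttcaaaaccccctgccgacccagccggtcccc

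The window before the upstream LTBP4 start had 45.2% G and C, 4 CpG dinucleotides and 1 GC box match. The window before the downstream LTBP4 start had 81.6% G and C, 33 CpG dinucleotides and 5 matches. The TGFB1 window, with 76.8% G and C, 21 CpG dinucleotides and 6 matches, was closer in composition to the downstream LTBP4 window. Over 34786 windows of the same length in the reference, the median was 58.0% G and C and 11 CpG dinucleotides, and 42.6% held GGGCGG. The letters CAGAC, which contain the short SMAD recognition letters, were found on either strand in 38.0% of all windows. They occurred 1 time before the upstream LTBP4 start and not in the other 2 windows. These matches describe letters and not bound sites. The deposited values are per gene, so they do not tell transcripts from the 2 LTBP4 starts apart.

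LTBP4, a binder of the latent form of TGFB1, was the member whose I13 and control libraries did not overlap. It was chosen because it rose, and 4.88% of all genes tested likewise lay wholly higher in I13. It was at 5.62, 5.47 and 5.81 FPKM in control libraries 1, 2 and 3 and at 8.85, 7.78 and 7.00 FPKM in I13 libraries 1, 2 and 3. All 3 I13 libraries lay above all 3 control libraries, and the I13 libraries were spread more widely than the control libraries. The mean was 5.64 ± 0.173 FPKM (SD, n = 3) in control and 7.87 ± 0.928 FPKM (SD, n = 3) in I13. On the scale of log2(FPKM + 0.1), on which all differences below are given, LTBP4 was higher by 0.47 (SE 0.095, 95% interval 0.25 to 0.69), a fold of 1.38. The values rest on 785, 761 and 781 fragments in control and 1142, 1052 and 867 in I13. The difference was 0.50 without control 3 and I13 2 and 0.41 between these 2 libraries alone. In libraries made from bulk RNA, more cells that express LTBP4 and more LTBP4 RNA per cell cannot be told apart. No other annotated gene of the table overlaps LTBP4.

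**Figure D1:**
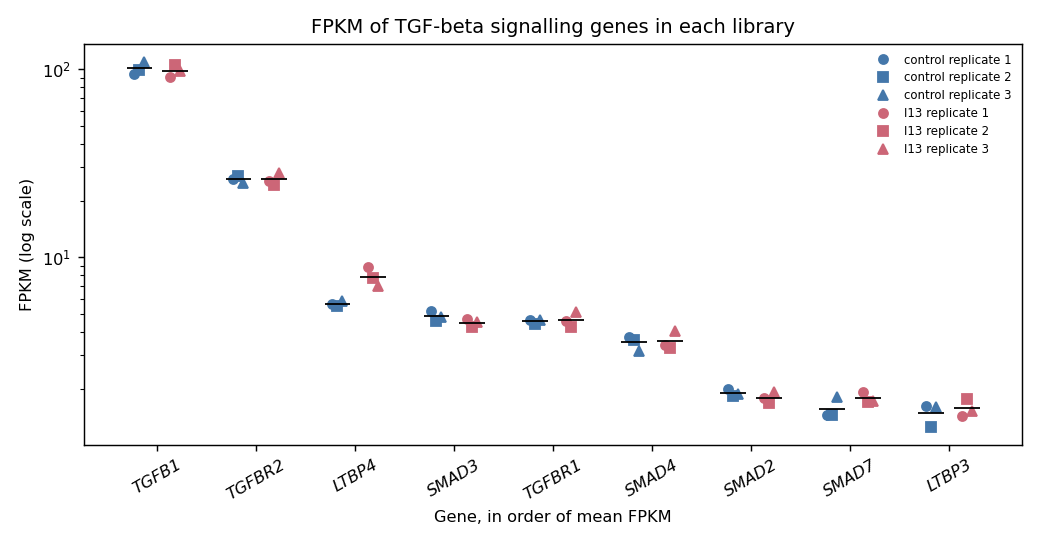
FPKM on a log axis of the 9 genes whose mean FPKM reached 0.1 in each of the 6 libraries, in order of mean FPKM, with control in blue, I13 in red and a line at each group's mean. The I13 and control points of LTBP4, chosen because it rose, are separate (7.00 to 8.85 against 5.47 to 5.81 FPKM). The points of each other gene overlap between the groups. Of all genes tested, 4.88% were separate and higher in I13.

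LTBP4 was not tested, and none of the other genes of the group passed a test. Of the 9, 8 reached a mean FPKM of 0.1 and were tested with limma over all 18726 genes at or above that level, with adjusted p-values of 0.983 to 1.00. None of the 8 had an unadjusted p under 0.05, against 5.14% of all genes tested, and none of the 8 was called at an adjusted p under 0.05 and a log2 fold change of 0.58 or more in either direction, against 0.0% of all genes. The smallest adjusted p over all genes was 0.275. The study reported up- and downregulated genes from its own analysis of these cells, which was not repeated here. The log2 fold change of LTBP4, 0.47, was itself below the 0.58 that a call needed. The voom method on fragment numbers also gave 0 of 8 at the unadjusted p, against 5.36% of 13794 genes, and called none of them, against 0.029%. The I13 and control values overlapped for all 8 genes, and 9.52% of all genes tested did not overlap. For 8 genes, counts of 0 are near these shares and do not set the members apart. By sign alone, 4 of the 8 were higher and 4 lower, with a median log2 fold change of 0.0067 against 0.0058 over all genes tested.

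The other LTBPs were at lower levels than LTBP4 in every library. LTBP1 (ENSG00000049323, chr2:32946972-33399509, plus strand), which binds the latent complex of all TGF-beta forms, had 1 fragment in all control libraries together and 3 in the I13 libraries, too few for a fold or a test. LTBP3 (ENSG00000168056, chr11:65538805-65558930, minus strand) is another binder of latent TGF-beta. It was at 1.61, 1.26 and 1.60 FPKM in control and at 1.43, 1.76 and 1.52 FPKM in I13. The highest and the lowest control library enclosed 2 of the 3 I13 libraries. Its mean was 1.49 ± 0.201 FPKM in control and 1.57 ± 0.171 FPKM in I13, a log2 fold change of 0.07 (SE 0.15, 95% interval -0.29 to 0.43). Of the summed FPKM of LTBP1, LTBP2, LTBP3 and LTBP4, LTBP4 held 61.6, 66.3 and 63.8% in control and 74.3, 69.3 and 69.4% in I13. LTBP4 was thus the most abundant LTBP per length of transcript in each library, with the larger shares in the I13 libraries. This share contains LTBP4, which was chosen because it rose, and is a description. LTBP2 does not bind latent TGF-beta and is a matrix protein of the same family. It had a log2 fold change of -0.06.

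TGFB1, the form of the ligand that blood cells mainly produce, had the highest level of the 10 genes. It was at 94.4, 99.2 and 109 FPKM in control and at 90.3, 105 and 98.1 FPKM in I13. The highest value in each group was in the library that stands apart, control 3 and I13 2. The mean was 101 ± 7.34 FPKM in control and 97.9 ± 7.52 FPKM in I13, a log2 fold change of -0.04 (SE 0.076, 95% interval -0.22 to 0.14). The difference was -0.04 without these 2 libraries and -0.05 between them. TGFB1 overlaps CCDC97, HNRNPUL1 and TMEM91 on the other strand, and no source used here says whether counting used the strand. The ratio of TGFB1 FPKM to LTBP4 FPKM was 16.8, 18.1 and 18.7 in control and 10.2, 13.6 and 14.0 in I13. This ratio contains LTBP4 and is likewise a description.

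The receptors were close between the groups. TGFBR2 (ENSG00000163513, chr3:30606502-30694142, plus strand), the receptor that binds the ligand first, was at 26.1, 27.1 and 24.7 FPKM in control and at 25.5, 24.1 and 28.0 FPKM in I13. The I13 libraries held both the lowest and the highest value. Its means of 26.0 ± 1.22 and 25.9 ± 1.94 FPKM gave a log2 fold change of -0.01 (SE 0.069, 95% interval -0.17 to 0.15). TGFBR1 (ENSG00000106799, chr9:99104038-99154192, plus strand), the kinase that phosphorylates the SMADs, was at 4.65, 4.40 and 4.62 FPKM in control and at 4.57, 4.26 and 5.08 FPKM in I13. Here too the lowest and the highest value were both in I13. Its log2 fold change was 0.02 (SE 0.088, 95% interval -0.19 to 0.23). It was 0.09 without control 3 and I13 2 and -0.12 between them. The difference between LTBP4 and any other member was not tested, because LTBP4 was chosen for its value.

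SMAD2 (ENSG00000175387, chr18:47808957-47931146, minus strand) and SMAD3 (ENSG00000166949, chr15:67063763-67195195, plus strand) are the SMADs that the TGF-beta receptor phosphorylates. SMAD3 was at 5.17, 4.57 and 4.82 FPKM in control and at 4.66, 4.26 and 4.52 FPKM in I13. I13 1 lay within the control range and the other 2 I13 libraries below it. The log2 fold change of SMAD3 was -0.11 (SE 0.081, 95% interval -0.30 to 0.08, unadjusted p = 0.208 and adjusted p = 0.983 in limma), the smallest p of the 8. SMAD2 was at 2.00, 1.82 and 1.86 FPKM in control and at 1.78, 1.68 and 1.92 FPKM in I13, with a log2 fold change of -0.08 (SE 0.11, 95% interval -0.34 to 0.19). The annotated exons of SMAD2 add up to 36366 bases, which sets its FPKM low although 3511 fragments fell on it in control and 3114 in I13. SMAD4 (ENSG00000141646, chr18:51028394-51085045, plus strand), the partner that both need in the nucleus, was at 3.77, 3.63 and 3.17 FPKM in control and at 3.42, 3.28 and 4.07 FPKM in I13. Its lowest value was in a control library and its highest in an I13 library. The log2 fold change of SMAD4 was 0.02 (SE 0.12, 95% interval -0.25 to 0.30).

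SMAD7 (ENSG00000101665, chr18:48919853-48952052, minus strand), the inhibitory SMAD and itself a target of the pathway, had the largest difference of the 8 tested genes. It was at 1.45, 1.45 and 1.80 FPKM in control and at 1.91, 1.70 and 1.72 FPKM in I13. Control 3 lay among the I13 libraries, while the other 2 control libraries lay below all of them. Its mean was 1.57 ± 0.201 FPKM in control and 1.78 ± 0.112 FPKM in I13, a log2 fold change of 0.18 (SE 0.14, 95% interval -0.14 to 0.50). Without control 3 and I13 2 the log2 fold change was 0.30, and between these 2 libraries it was -0.07. The values rest on 92, 92 and 110 fragments in control and 112, 105 and 97 in I13, the fewest of the 8. The deposited values gave whole fragments at an exon length of 3692 bases and not at the 5033 bases of GENCODE release 29, so its level relative to the other genes depends on the annotation, while its fold change does not. The ratio of SMAD7 to SMAD3 FPKM was 0.280, 0.318 and 0.373 in control and 0.409, 0.400 and 0.381 in I13. The ratio did not overlap between the groups, but it was not tested and 1 control library was within 0.01 of the lowest I13 library. It joins the genes with the highest and the lowest log2 fold change of the 8, which favours separation. Of single genes tested, 9.52% did not overlap, and the share among ratios was not measured.

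**Figure D2:**
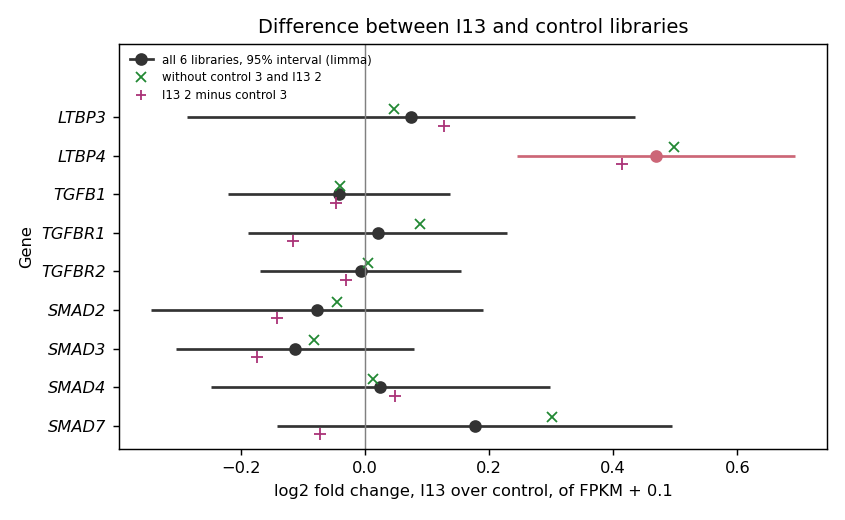
Difference between I13 and control as log2 fold change of FPKM + 0.1 for the 9 genes whose mean FPKM reached 0.1, as points with 95% limma intervals over all 6 libraries, crosses for the value without control 3 and I13 2, and plus signs for I13 2 minus control 3. The LTBP4 interval, 0.25 to 0.69, lies above 0 by the way the gene was picked, and the intervals of the other 8 genes include 0.

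The order of the levels was similar in both groups. In control it ran from TGFB1, TGFBR2 and LTBP4 through SMAD3, TGFBR1 and SMAD4 to SMAD2, SMAD7, LTBP3 and LTBP1. SMAD3 and TGFBR1 overlapped in their library values, as did SMAD7 and LTBP3, and each other pair of neighbours in the order was separate. In I13 TGFBR1 had the higher mean of the pair with SMAD3, again with overlap, and SMAD2, SMAD7 and LTBP3 overlapped with their neighbours in the order. LTBP4 ranked number 3 in both groups.

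To see how the rest of the pathway behaved, 74 further genes of TGF-beta and bone morphogenetic protein (BMP) signalling were listed by role. Of these, 73 are in the table and 52 were tested with limma. None of the 52 was higher at an unadjusted p under 0.05, against 2.55% of all genes tested, and 4 were lower, against 2.59%. None was called at the adjusted p and the fold threshold, against 0.0% of all genes. With voom, 54 genes of the list were tested and 1 was higher at the unadjusted p (ID2, against 2.56% of all genes) and 4 were lower, the same 4 genes as with limma (against 2.81%). By sign in limma, 23 of the 52 were higher and 29 lower, and the median log2 fold change was -0.03 against 0.0058 over all genes. The 4 lower genes were BMP4, BHLHE40, FBN2 and ID1, and none of them passed the adjusted p. Groups did not overlap for 2 genes that were higher, ACVR1B and TAGLN, against 4.88% of all genes, and for 4 that were lower, BMP4, BHLHE40, FBN2 and TSC22D1, against 4.64%.

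**Figure D3:**
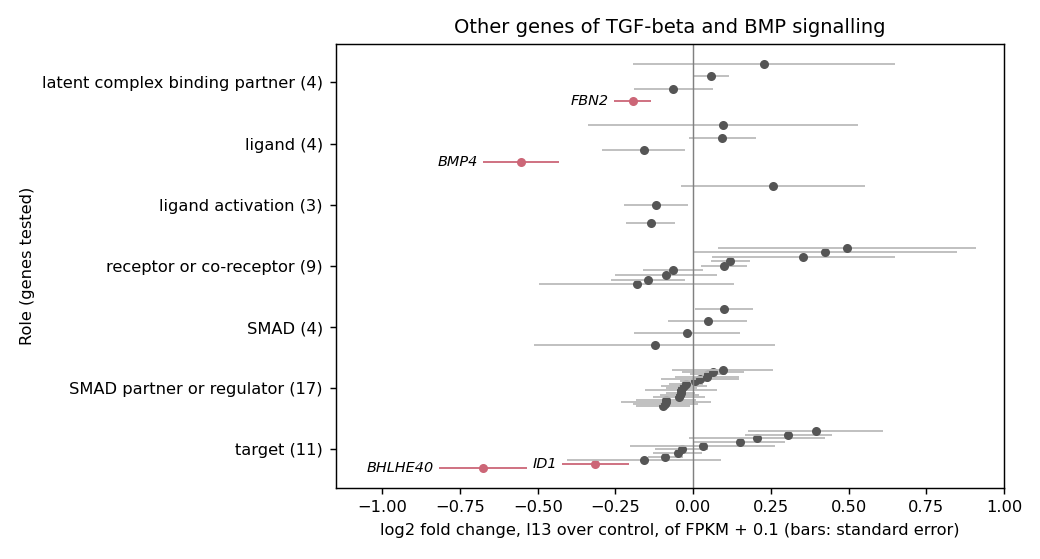
Log2 fold change of FPKM + 0.1, I13 over control, of the 52 tested pathway genes by role, with bars of 1 standard error. The 4 named genes in red, FBN2, BMP4, ID1 and BHLHE40, had an unadjusted limma p under 0.05, all 4 lie left of 0, and none passed the adjusted p.

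By role the counts are small, and over all genes tested 2.55% were higher and 2.59% lower at the unadjusted p. Among the matrix and membrane partners of the latent complex, 0 of 4 genes tested with limma were higher and 1 was lower. FBN2 (chr5:128257909-128659185, minus strand) encodes fibrillin-2, a microfibril protein of the family to which LTBPs attach. It was at 31.4, 31.8 and 32.6 FPKM in control and at 26.0, 27.9 and 29.9 FPKM in I13. All 3 I13 libraries lay below all 3 control libraries. The log2 fold change was -0.20 (SE 0.060, unadjusted p = 0.0142, adjusted p = 0.875 in limma), and it was -0.18 without control 3 and I13 2 and -0.22 between them. NRROS, which tethers latent TGF-beta to the surface of myeloid cells, was the most abundant gene of this role, at 48.3 ± 2.12 FPKM in control and 50.3 ± 2.43 FPKM in I13 with a log2 fold change of 0.06 (95% interval -0.07 to 0.19). LRRC32, its relative on regulatory T cells and platelets, was covered by 15 fragments in control and 13 in I13. FBN1 had 69 fragments in control and 51 in I13, was below the FPKM level of the limma test, and had a log2 fold change of -0.30 with voom (unadjusted p = 0.390). FBLN5 had 0 and 1 fragments.

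Among the ligands, 0 of 4 tested were higher (2.55% of all genes) and 1 was lower (2.59%). BMP4 (chr14:53949736-53958761, minus strand) encodes a bone morphogenetic protein, a ligand that signals through SMAD1, SMAD5 and SMAD9. It was at 3.81, 3.59 and 3.94 FPKM in control and at 2.18, 2.92 and 2.57 FPKM in I13. The groups did not overlap, and the I13 libraries were the more spread. The log2 fold change was -0.55 (SE 0.12, unadjusted p = 0.00251, adjusted p = 0.589 in limma), a fold of 0.681, and it was -0.62 without control 3 and I13 2 and -0.42 between them. GDF11, an activin-like ligand, was at 3.03 ± 0.163 FPKM in control and 3.25 ± 0.353 FPKM in I13, with a log2 fold change of 0.09. TGFB3, another form of TGF-beta, was at 1.53 ± 0.126 and 1.36 ± 0.105 FPKM with a log2 fold change of -0.16 (95% interval -0.47 to 0.15). TGFB2 was covered by 4 fragments in control and by 0 in I13. TGFB1 was therefore the form with by far the highest level per length in both groups.

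Of the genes that process or release the ligand, 0 of 3 tested passed the unadjusted p, against 5.14% of all genes. FURIN, the protease that cleaves the TGF-beta precursor, was at 44.9 ± 4.09 FPKM in control and 40.8 ± 2.51 FPKM in I13, with a log2 fold change of -0.14 (95% interval -0.32 to 0.05). ITGAV, the integrin chain that pulls on the latent complex, was at 8.41 ± 0.799 and 7.74 ± 0.765 FPKM, with a log2 fold change of -0.12 (95% interval -0.36 to 0.12). With a term for control 3 and I13 2 in the limma fit, both passed the unadjusted p, FURIN at an unadjusted p = 0.0357 and ITGAV at an unadjusted p = 0.0318, with adjusted p = 0.628 and adjusted p = 0.623. Of the integrin chains that pair with it, the list holds ITGB6 and ITGB8. ITGB6 had 0 fragments in all 6 libraries, and ITGB8 had 0 in control and 1 in I13. THBS1, an activator secreted by platelets among others, had 1 and 3 fragments.

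Of the other receptors and co-receptors, 0 of 9 tested passed the unadjusted p, against 5.14% of all genes. ENG (endoglin), a co-receptor, was at 20.1 ± 1.46 FPKM in control and 21.5 ± 1.45 FPKM in I13, with a log2 fold change of 0.10 (95% interval -0.08 to 0.27). It passed with the term for control 3 and I13 2 (unadjusted p = 0.0289, adjusted p = 0.623 in limma). ACVR1B, an activin receptor kinase that also phosphorylates SMAD2 and SMAD3, was at 7.72, 7.55 and 8.27 FPKM in control and at 8.55, 8.46 and 8.56 FPKM in I13. Its groups did not overlap, but the log2 fold change of 0.12 had a 95% interval of -0.03 to 0.27. Without control 3 and I13 2 it was 0.16 (95% interval 0.02 to 0.30, unadjusted p = 0.0308, adjusted p = 0.585 in limma), and between these 2 libraries it was 0.03. Among the other SMADs, 0 of 4 tested passed the unadjusted p. SMAD5, of the BMP branch, was at 7.70 ± 0.899 and 7.97 ± 1.10 FPKM, with a log2 fold change of 0.05. SMAD6, the inhibitory SMAD of that branch, was at 3.69 ± 0.277 and 3.95 ± 0.245 FPKM, with a log2 fold change of 0.10 (95% interval -0.12 to 0.32).

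Of the partners and regulators of the SMADs, 0 of 17 tested passed the unadjusted p, against 5.14% of all genes. FKBP1A, which binds TGFBR1 and keeps it inactive without ligand, was at 98.3 ± 1.43 FPKM in control and 98.7 ± 4.35 FPKM in I13, with a log2 fold change of 0.00 (95% interval -0.11 to 0.12). STRAP, which helps SMAD7 to block the receptor, was at 48.8 ± 2.31 and 48.0 ± 2.00 FPKM, with a log2 fold change of -0.02 (95% interval -0.15 to 0.11).

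Among 20 listed target genes, 11 were tested, 0 were higher (2.55% of all genes) and 2 were lower (2.59%) at the unadjusted p. By sign, 5 of the 11 were higher and 6 lower. TAGLN, whose groups did not overlap, was at 0.593, 0.699 and 0.755 FPKM in control and at 1.20, 0.780 and 0.835 FPKM in I13. Its log2 fold change was 0.39 (95% interval -0.12 to 0.90). BHLHE40 (chr3:4979116-4985323, plus strand) encodes a transcriptional repressor. It was at 2.38, 1.94 and 1.81 FPKM in control and at 1.16, 1.30 and 1.25 FPKM in I13. All I13 libraries lay below all control libraries, and the control libraries were the more spread. The log2 fold change was -0.68 (SE 0.14, unadjusted p = 0.00200, adjusted p = 0.560 in limma), a fold of 0.626. It was -0.79 without control 3 and I13 2 and -0.45 between them. The values rest on 157, 128 and 115 fragments in control and 71, 83 and 73 in I13.

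ID1 (chr20:31605283-31606515, plus strand) encodes an inhibitor of basic helix-loop-helix factors and is a classical target of BMP signals. It was at 30.4, 33.9 and 27.8 FPKM in control and at 22.7, 28.4 and 23.0 FPKM in I13. I13 2 lay within the control range and the other 2 I13 libraries below it. The log2 fold change was -0.32 (SE 0.11, unadjusted p = 0.0222, adjusted p = 0.901 in limma). It was -0.49 without control 3 and I13 2, and 0.03 between these 2 libraries, so these 2 libraries differed little. ID2, a relative of ID1, was at 3.82, 4.68 and 5.26 FPKM in control and at 5.24, 5.30 and 6.47 FPKM in I13, with a log2 fold change of 0.31 (95% interval -0.02 to 0.63). Without control 3 and I13 2 it was 0.45 (unadjusted p = 0.0405, adjusted p = 0.609 in limma). JUNB, an early target of many signals, was at 36.4 ± 3.38 and 35.1 ± 2.02 FPKM with a log2 fold change of -0.05. Several targets often used to read TGF-beta responses in adherent cells were near 0. TGFBI had 5 and 1 fragments in control and I13, CTGF 2 and 0, CDKN2B 1 and 2, and COL1A1 0 and 0. For these targets a difference was not detectable at this depth.

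**Figure D4:**
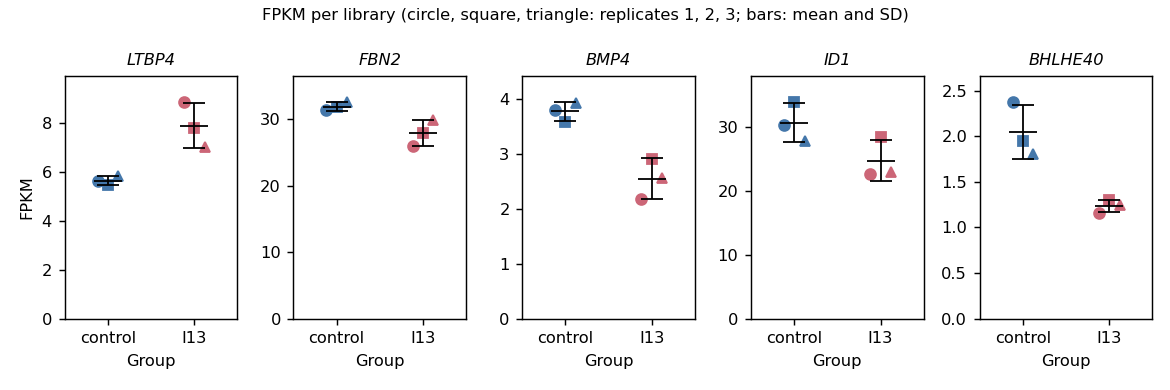
FPKM per library of LTBP4 and of the 4 pathway genes with an unadjusted p under 0.05, control in blue and I13 in red, with bars for mean and SD. The I13 points lie above control for LTBP4 and below control for FBN2, BMP4 and BHLHE40, and for ID1 the I13 2 point (28.4 FPKM) lies above the control 3 point (27.8 FPKM).

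The genes around LTBP4 were compared in the same fit. Within 200 kb on either side lie 14 protein-coding genes, 11 of them at a mean FPKM of 1 or more, and 0 of the 11 had an unadjusted p under 0.05, near the share of 5.14% over all genes tested. SHKBP1, which ends 1.48 kb before LTBP4 and is read in the same direction, was at 25.7 ± 2.20 FPKM in control and 26.4 ± 1.19 FPKM in I13, with a log2 fold change of 0.04 (95% interval -0.13 to 0.21). The next gene on the other side, NUMBL, 36.1 kb away, was at 1.60 ± 0.0929 and 1.81 ± 0.116 FPKM, with the largest log2 fold change of the 11, 0.17 (95% interval -0.11 to 0.44). COQ8B had the lowest, -0.11 (95% interval -0.34 to 0.12). PRX, SERTAD1, SERTAD3, BLVRB, ITPKC, C19orf54, SNRPA and EGLN2 lay between -0.07 and 0.03.

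**Figure D5:**
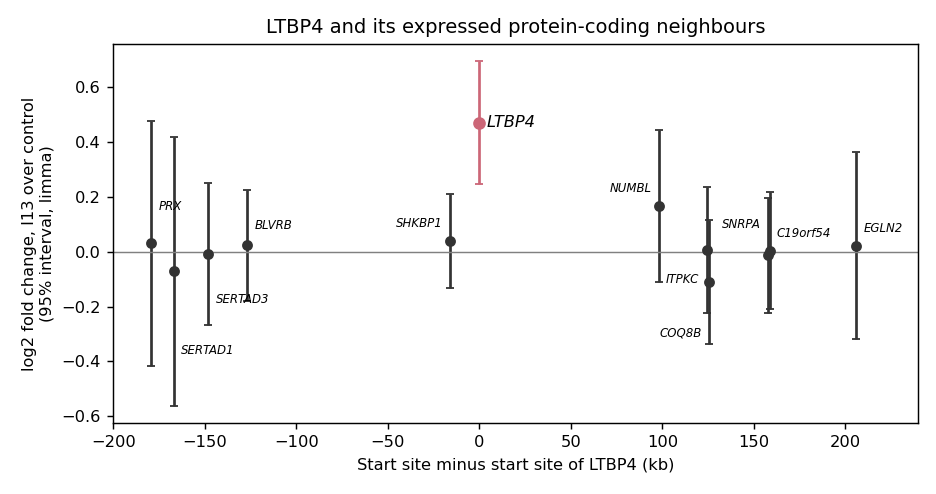
Log2 fold change of FPKM + 0.1, I13 over control, with 95% limma intervals for LTBP4 (red) and the 11 protein-coding neighbours at a mean FPKM of 1 or more, by the distance of their start site from that of LTBP4 in kb. The neighbours lie between -0.11 and 0.17 with intervals that include 0, and LTBP4 lies at 0.47.

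Across the 11516 genes whose mean FPKM was 1 or more, those whose log2(FPKM + 0.1) followed LTBP4 most closely over the 6 libraries were BACE2 (Pearson r = 0.993), REEP2 (r = 0.993), AC011461.1 (r = 0.990), TRGJP1 (r = 0.990) and HSPB11 (r = 0.981). These values describe 6 libraries in 2 groups and carry no test. BACE2, a protease, was at 3.24, 3.12 and 3.28 FPKM in control and at 3.89, 3.73 and 3.54 FPKM in I13. Like LTBP4 it was highest in I13 1 and lowest in control 2. REEP2, a protein of the endoplasmic reticulum, was at 0.778, 0.799 and 0.790 FPKM in control and at 1.40, 1.22 and 1.06 FPKM in I13. It shared the order of the I13 libraries. TRGJP1 rests on 1 to 8 fragments per library and AC011461.1 on 3 to 15, so their place in the list is uncertain. Among the members, SMAD7 had the highest r with LTBP4, 0.75, and SMAD2 the lowest, -0.60. In the pathway list, FBN2 (r = -0.96) and BMP4 (r = -0.92) had the lowest values and ACVR1B (r = 0.82) the highest. Because LTBP4 was picked for its rise, r with LTBP4 also carries each gene's own difference between the groups. It is no separate evidence of a link to LTBP4.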

How the data were processed

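Kasumi-1 mRNA was sequenced in 3 control and 3 I13 libraries. The authors deposited FPKM values for each gene in each library as 1 table, and the submitters' processing notes name Trimmomatic, HISAT2, Cufflinks, HTSeq and the build hg38. The library kit keeps the strand. The sources used here name neither the annotation nor the strand setting of counting. Gene names, coordinates and exon lengths were taken from GENCODE release 29, which names 32244 of 32364 identifiers. With these lengths, 25773 of 27002 genes above 0 (95.4%) gave whole fragments within 0.01, and 1229 were recovered at another length.

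Differences were fitted in R 4.3.3 with limma 3.58.1, with a variance trend on log2(FPKM + 0.1) over genes whose mean FPKM reached 0.1. This scale understates the change of low genes. Tests were two-sided, p-values were adjusted over all genes by the Benjamini-Hochberg method, and calls needed a log2 fold change of 0.58 or more in either direction. Voom used the recovered fragments, for genes that averaged 10 or more. In a simulation of I13 against control, limma recovered 176 of 200 genes changed 2-fold with 23 false calls among 18556 genes, and voom 200 of 200 with 4 among 13810. Its spread between replicates was set by hand, and no simulated libraries stood apart as control 3 and I13 2 do. Only genes with many fragments were changed. The simulation checks the fitting and does not give the power or the false calls of the real fits. Tables and figures were made with Python 3.11.15.

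The members and lists were chosen with earlier results of these data known. Named genes are the members, pathway genes with an unadjusted p under 0.05, the 2 most abundant genes of each role, neighbours of LTBP4 and the 5 genes most like it. ID2, TSC22D1, TAGLN, LTBP2, TGFB3 and the genes near 0 were named after their values were seen. Alternatives were other pseudocounts (1 and 0.01), filters, scalings and variance models, each library left out, the replicate number as a block, and voom. Counts and limits of fragments cover counting error only.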

Additional observations from a re-analysis of the deposited data

How the results depend on the processing

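LTBP4 stayed higher in I13 in all 18 alternatives, with a log2 fold change from 0.38 to 0.55, and the same 0.38 to 0.55 when each library was left out in turn. The lowest value was found without I13 1. Because LTBP4 was chosen for its rise and its groups do not overlap, leaving out a library could not turn its direction. The range describes the size of the difference only. Of the other members, 0 passed the unadjusted p and 0 were called in every alternative, leave-one-out fits included (0 to 0), although 12 of 144 values had the other sign. In the pathway list, 4 genes passed the unadjusted p in the main setting. The number was 2 for limma without a trend (BMP4 and BHLHE40), 7 with a term for the libraries that stand apart (also ITGAV, FURIN and ENG), 7 for voom with that term (also ITGAV, FURIN and ID2), and 3 to 6 when each library was left out. It was 5 in each of voom, a fit without control 3 and I13 2, and a fit with the replicate number as a block. Pathway genes called were 0 except 1 for voom with the term (BHLHE40, adjusted p = 0.0390), an alternative chosen after the data were seen. FBN2 and BMP4 passed its adjusted p (0.0342 and 0.0374) but not the fold. The share of all genes was counted only in the main limma fit and in voom without the term. The numbers of the other alternatives therefore cannot be set against such a share and are no result about the pathway. In limma, ID1 no longer passed the unadjusted threshold without control 2 (unadjusted p = 0.0781), I13 1 (unadjusted p = 0.0757) or I13 3 (unadjusted p = 0.0750) and without a trend (unadjusted p = 0.0590). FBN2 no longer passed it without a trend (unadjusted p = 0.0547) and without control 3 and I13 2 (unadjusted p = 0.0730). Leaving out 1 library leaves 2 in its group. Whether the replicate numbers pair the samples is not known. The deviations of control and I13 libraries of numbers 1, 2 and 3 correlated at 0.32, -0.38 and -0.30. Those of control 3 and I13 2, the libraries that stand apart, correlated at 0.51. These values cannot decide on pairing, because each deviation is taken from a group mean that includes such a library. With the replicate block, 0 members passed the unadjusted p. Depth limited LTBP1, SMAD7 and the pathway genes below 0.1 FPKM.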
